A study of Nicrophorus vespilloides with 60 samples.

Results

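Replicate lines F1 and F2 of the burying beetle *Nicrophorus vespilloides* had both evolved in the laboratory with full parental care, and gene expression in the heads of their larvae was compared here. The rule took every RNA library whose title begins with F1 or F2, which gave 23 of the 46 RNA libraries of the series, 11 of F1 and 12 of F2. The series holds 60 samples in all, and its 14 bisulfite libraries were not analysed here.

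The study asked how gene expression and DNA methylation change when parental care is withheld over generations. It kept populations that evolved with full care (FC) or with no care (NC), founded from interbred wild beetles of Cambridgeshire, and paired adults of generation 29 to obtain larvae for both environments. In the with care environment both parents stayed with the brood, and in the without care environment they were removed 53 h after pairing. First-instar larvae of all groups were collected 80 h after pairing. There were 6 libraries of F1 raised with care (F1_FC), 5 of F1 raised without care (F1_NC), 6 of F2 raised with care (F2_FC) and 6 of F2 raised without care (F2_NC). Each library held polyA-selected RNA of 4 larval heads pooled from 1 family, so that a library is a family and no value describes a single larva. Each line is 1 population, and F1 and F2 were kept in separate blocks a week apart. A difference between them therefore cannot be told apart from a difference between the blocks. In pooled heads, fewer cells of a type and less RNA per cell cannot be told apart either.

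Burying beetles breed on a small carcass, where parents defend and feed the larvae, yet larvae of this species can develop without post-hatching care. Lines taken from the same founders diverge through genetic drift and through any selection that differs between them, and replicate lines serve to show how far apart populations of 1 regime can come to lie. Heat shock proteins of the 70 kDa family, to which the gene with the lowest p between the lines belongs, are chaperones that hold unfolded proteins and that many cells make in greater amounts under heat or other stress.

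The deposited counts of a library summed to between 106519026 and 135789513 in F1 (median 116928507) and to between 107271022 and 136956219 in F2 (median 114809409). The 55 pairs of libraries within a group differed by more than counting noise, with a chi-square per gene of at least 260. Low counts were unevenly spread over the whole numbers. Multiples of 4 made up 39.8% of the values between 1 and 100, where even spacing gives 25%, so that a low count is not a number of independent reads. Levels are given as CPM, the count of a gene relative to the library total after scaling by TMM factors over the 46 libraries, and are not divided by gene length. Differences are fitted log2 fold changes of F2 minus F1 with their standard error (SE).

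Across all genes the lines lay closer together than the environments did, which does not show that the lines were alike. Of the variation in log2 CPM over 11730 genes, the line accounted for 5.15% (p = 0.13, permutation test) and the environment for 26.9% (p = 1e-05, the smallest the permutations can give). The median distance between libraries of the same line and environment was 111, and that between libraries of different lines in the same environment was 116. It was 144 between environments within a line. The first principal component held 35.9% of the variance and followed the environment, which accounted for 71.2% of it against 0.0758% for the line. The fourth component, with 5.62% of the variance, was the one that separated the lines. There F1 ran from -36.1 to -7.34 and F2 from -0.338 to 51.6, without overlap, and the line accounted for 74.7% of this component. The F2 families raised with care were the most scattered group, with a median distance of 136 against 102 in F2 without care, and 2 of them, F2_26 and F2_31, lay on the without care side of the first component.

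**Figure D1:**
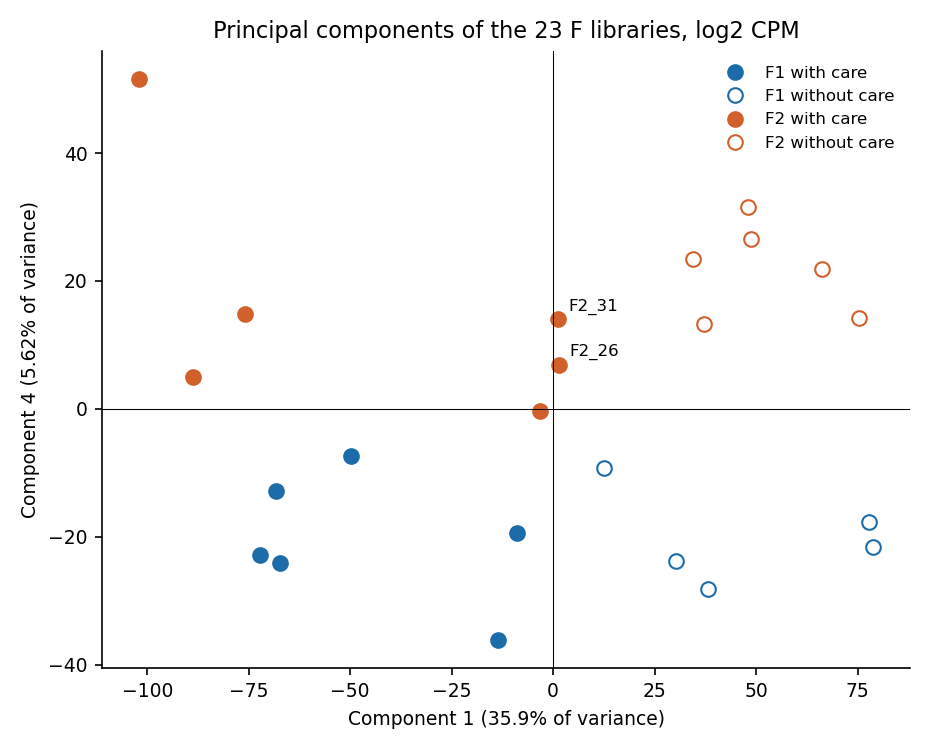
Principal components 1 and 4 of log2 CPM over 11730 genes for the 23 libraries, with F1 in blue, F2 in orange, families raised with care as filled points and families raised without care as open points. All F1 families lie below all F2 families on component 4, and the 2 named F2 families raised with care lie just on the without care side of component 1.

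With environment as a covariate, 26 of 11730 genes (0.222%) differed between the lines at an adjusted p under 0.01 and an absolute log2 fold change of at least 1, which is what DEG means below. Of these DEGs, 14 were higher in F2 (0.119% of all genes) and 12 were higher in F1 (0.102%). All 26 kept the same sign in both environments, as 64.4% of all genes did. The test averages over both environments, which favours genes of 1 sign. Of the 26, 23 were protein coding and 3 were long non-coding RNAs. Most were of low level, with 16 under 5 CPM in the mean of either line. The absolute log2 fold change was at least 2 in 7 of them. At an adjusted p under 0.01 and any fold change there were 95 genes (0.81%), of which 44 were higher in F2 and 51 were higher in F1, and 2227 genes (19%) had an unadjusted p under 0.05. Most calls rested on the full set of libraries. The count of 26 became 9 without F1_03, F2_27 or F2_36, 10 without F1_09A, 11 without F1_04, F1_16 or F1_20, 12 without F2_38, 13 without F1_14, F1_15, F1_17 or F2_26, 14 without F2_43, 15 without F2_32 and 16 without F2_41. Of the 26 genes, 7 were called in each of the 23 fits that left out 1 library, and 14 were called in fewer than 12 of them. Without F2_26 and F2_31 together the count was 9, and the genes called then were LOC108564555, LOC108558836, LOC108570026, LOC108564600, LOC108569938, LOC108562079, LOC108563281, LOC108559109 and LOC108567123.

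LOC108564555, which encodes a heat shock 70 kDa protein 1A-like chaperone, was the DEG with the lowest p. Its level in F1 was 15.4 CPM at the lowest, 38.5 CPM at the median and 64 CPM at the highest of 11 families. In F2 it was 2.43 CPM at the lowest, 4.8 CPM at the median and 8.26 CPM at the highest of 12 families. Every F1 family lay above every F2 family, and also above every family of the lines that had evolved without care, where the level ran from 0.963 to 8.35 CPM (n = 23). F1 was thus the line that stood apart, and F2 lay in the range of the other lines. The gene was lower in F2 by a log2 fold change of -3.11 (SE 0.261, adjusted p = 4.63e-07). Raised with care, F1 averaged 44.6 ± 14.4 CPM (SD, n = 6) and F2 3.48 ± 1.41 CPM (SD, n = 6), a log2 fold change of -3.66 (SE 0.325, adjusted p = 2.44e-06). Raised without care, F1 averaged 35.3 ± 17.3 CPM (SD, n = 5) and F2 6.28 ± 1.41 CPM (SD, n = 6), a log2 fold change of -2.51 (SE 0.317, adjusted p = 0.00106). The difference between those values of the 2 environments was not significant (adjusted p = 0.999, unadjusted p = 0.0135). This gene was called in all 23 fits that left out 1 library. How reads that match several heat shock genes alike were counted is not given in the sources used here.

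The record next to it in the gene table, LOC108564556, a protein coding gene without a product name in the sources used here, differed in the same direction. In the Nicve_v1.0 assembly it spans bases 34041 to 36248 and LOC108564555 bases 36369 to 38210, with 120 bases between them. The table gives no scaffold, and whether reads were counted by strand is not given. LOC108564556 ran from 1.25 to 4.56 CPM in F1 (median 3.26) and from 0.282 to 2.15 CPM in F2 (median 0.868). The ranges overlapped, with 8 of 11 F1 families above all F2 families and above all families of the no care lines. The log2 fold change was -1.77 (SE 0.304, adjusted p = 0.00376). Among families raised with care the ranges did not overlap, and the log2 fold change there was -2.45 (SE 0.367, adjusted p = 0.00728). It was -1.02 without care (SE 0.363, adjusted p = 0.196). The records on either side of the pair, LOC108564553 and LOC108564558, had log2 fold changes of 0.08 (SE 0.132) and -0.42 (SE 0.128) and did not pass.

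**Figure D2:**
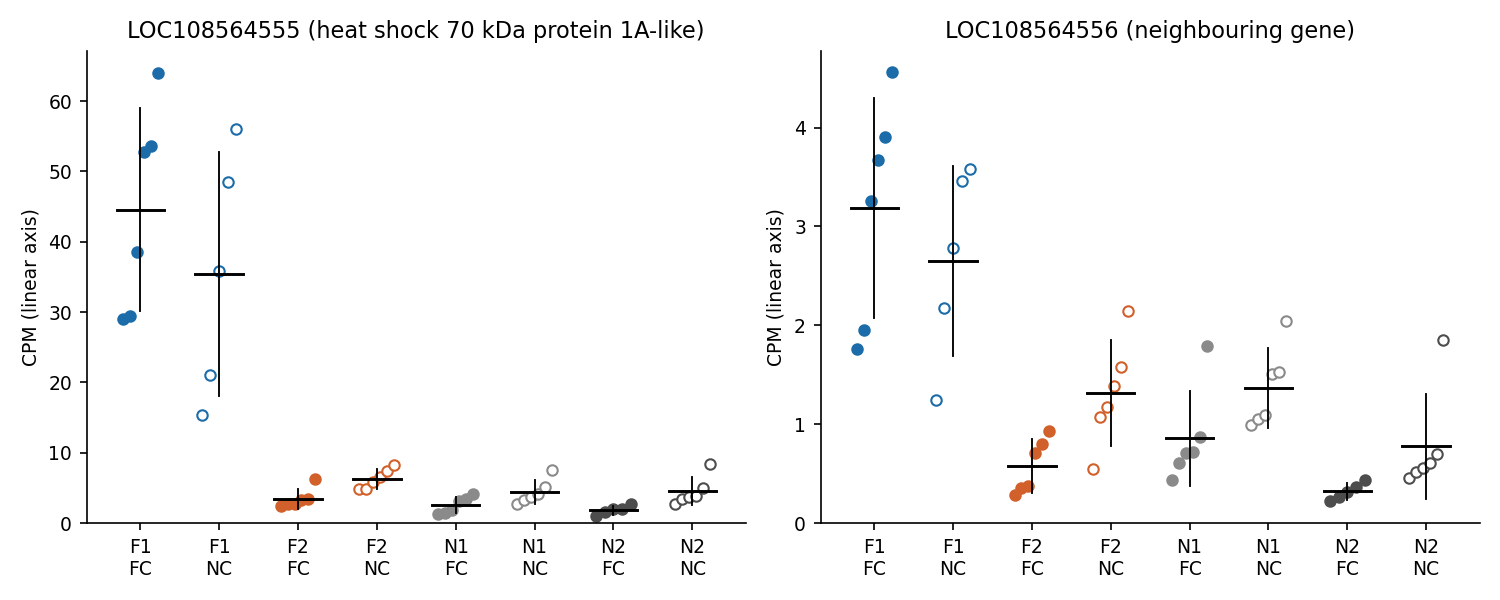
Levels in CPM on a linear axis of LOC108564555 and its neighbouring record LOC108564556 in each library of the 8 groups of line and environment, with filled points for families raised with care (FC), open points for families raised without care (NC), horizontal lines for means and vertical lines for ± SD. F1 families reach 15.4 to 64 CPM of LOC108564555 and no other family exceeds 8.35 CPM, while the levels of LOC108564556 overlap between F1 and F2.

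A second pair of adjacent records was higher in F2 and split its families. LOC108564592 spans bases 563 to 2415 and LOC108564590 bases 4700 to 7946, with 2284 bases between them. Both are protein coding and neither has a product name in the sources used here. LOC108564592 ran from 0.334 to 1.41 CPM in F1 (median 0.855) and from 0.439 to 14.1 CPM in F2 (median 6.23). LOC108564590 ran from 0.0928 to 1.51 CPM in F1 (median 0.518) and from 0.311 to 12.5 CPM in F2 (median 5.38). The same 8 of 12 F2 families were high in both genes, at 2.65 to 14.1 CPM and 3.03 to 12.5 CPM. The other 4, F2_28, F2_32, F2_34 and F2_38, were at 0.439 to 1.02 CPM and 0.311 to 1.01 CPM, within the F1 range. No family of the no care lines exceeded 1.92 CPM for LOC108564592 or 1.54 CPM for LOC108564590. The 8 high families were 3 of 6 raised with care and 5 of 6 raised without care, so that both states were present in both environments. The log2 fold changes were 2.80 (SE 0.531, adjusted p = 0.00689) and 3.01 (SE 0.572, adjusted p = 0.00689), and they average over a line that held high and low families. Each gene was called in 9 of the 23 fits that left out 1 library, and without F2_26 and F2_31 neither was called (adjusted p = 0.0199 and 0.0267). The next records, LOC108564591 and LOC108564589, had log2 fold changes of -0.03 (SE 0.0765) and 0.34 (SE 0.116) and did not pass.

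**Figure D3:**
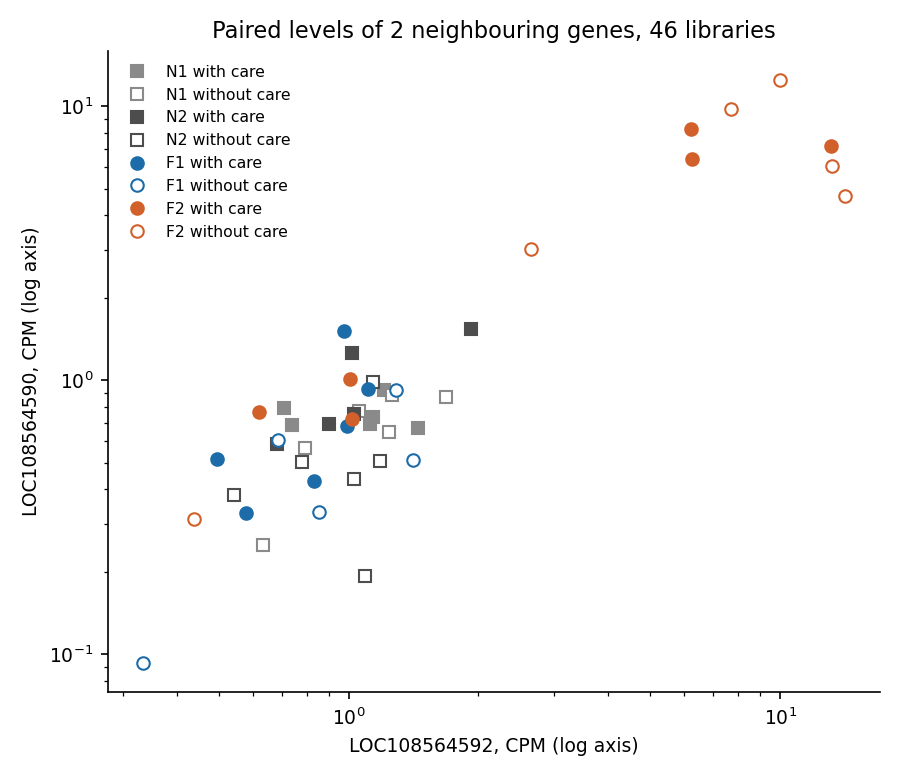
Levels of the adjacent records LOC108564592 and LOC108564590 in CPM, both on log axes, with 1 point for each of the 46 libraries, circles for F1 and F2, squares for the no care lines N1 and N2, and filled points for families raised with care. The 8 high F2 families lie above 2.6 CPM on both axes and apart from the remaining libraries, among which 4 F2 families lie.

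Among the other genes higher in F2, LOC108558836 was the only one whose lines did not overlap. It ran from 1.97 to 4.82 CPM in F1 (median 4.05) and from 5.41 to 12.8 CPM in F2 (median 8.58). Together with LOC108564555 it made 2 DEGs without overlap, among genes chosen on these same libraries, where 4 genes of all tested (0.0341%) had none. The log2 fold change was 1.31 (SE 0.187, adjusted p = 0.00108), nearly the same with care (1.32, SE 0.263) as without (1.30, SE 0.279). LOC108570026 ran from 3.57 to 9.22 CPM in F1 (median 5.66) and from 7.24 to 24.7 CPM in F2 (median 14.3). Its lines overlapped over all families but not within either environment, and the log2 fold change was 1.27 (SE 0.164, adjusted p = 2.78e-04). It was the DEG with the lowest p among those higher in F2. LOC108569938, at 1.10 to 2.06 CPM in F1 (median 1.38) and 1.94 to 5.50 CPM in F2 (median 2.54), was higher in F2 by 1.04 (SE 0.162, adjusted p = 0.00235). LOC108562079 had low levels of 0.032 to 0.139 CPM in F1 and 0.0546 to 0.646 CPM in F2, and 11 of 12 F2 families lay above all F1 families. It was higher in F2 by 2 on the log2 scale (SE 0.336, adjusted p = 0.00374). LOC108558836, LOC108570026 and LOC108562079 were called in all 23 fits that left out 1 library, and LOC108569938 in 21.

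Of the remaining genes higher in F2, LOC108563281 was at 0.341 to 2.82 CPM in F2 and at no more than 0.992 CPM in F1, with 11 of 12 F2 families above every F1 family. Its log2 fold change was 1.34 (SE 0.258, adjusted p = 0.00689). LOC108559109, a long non-coding RNA, was higher by 1.35 (SE 0.248), LOC108565969 by 1.05 (SE 0.210) and LOC108568407 by 1.03 (SE 0.202). These 4 genes were called in 7, 13, 4 and 5 of the 23 fits. None of them has a product name in the sources used here.

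Among the other genes higher in F1, LOC108564600 ran from 6.01 to 14.5 CPM in F1 (median 11.1) and from 2.59 to 7.63 CPM in F2 (median 4.33). In this gene 9 of 11 F1 families lay above all F2 families, and the log2 fold change was -1.10 (SE 0.178, adjusted p = 0.00348). LOC108558509 ran from 2.31 to 17.7 CPM in F1 (median 8.17) and from 1.43 to 5.48 CPM in F2 (median 2.17), a log2 fold change of -1.55 (SE 0.259, adjusted p = 0.00374). Both were called in all 23 fits that left out 1 library, although LOC108558509 was not called without F2_26 and F2_31 together (adjusted p = 0.013). LOC108560438 differed more among families, from 0.714 to 10.4 CPM in F1 (median 5.21) and from 0.310 to 1.62 CPM in F2 (median 0.925). Its log2 fold change was -2.54 (SE 0.424, adjusted p = 0.00374). Here F2 was the narrow line, since the no care lines ran from 0.231 to 27 CPM. LOC108566430 ran from 5.17 to 53 CPM in F1 (median 16.9) and from 3.80 to 9.99 CPM in F2 (median 4.88), a log2 fold change of -1.74 (SE 0.306, adjusted p = 0.00465). LOC108558898, a long non-coding RNA, was lower in F2 by -1.41 (SE 0.279), LOC108560047 by -1.08 (SE 0.213), LOC108567123 by -1.05 (SE 0.217) and LOC108568471 by -1 (SE 0.202), with each called in 2 to 4 of the 23 fits.

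**Figure D4:**
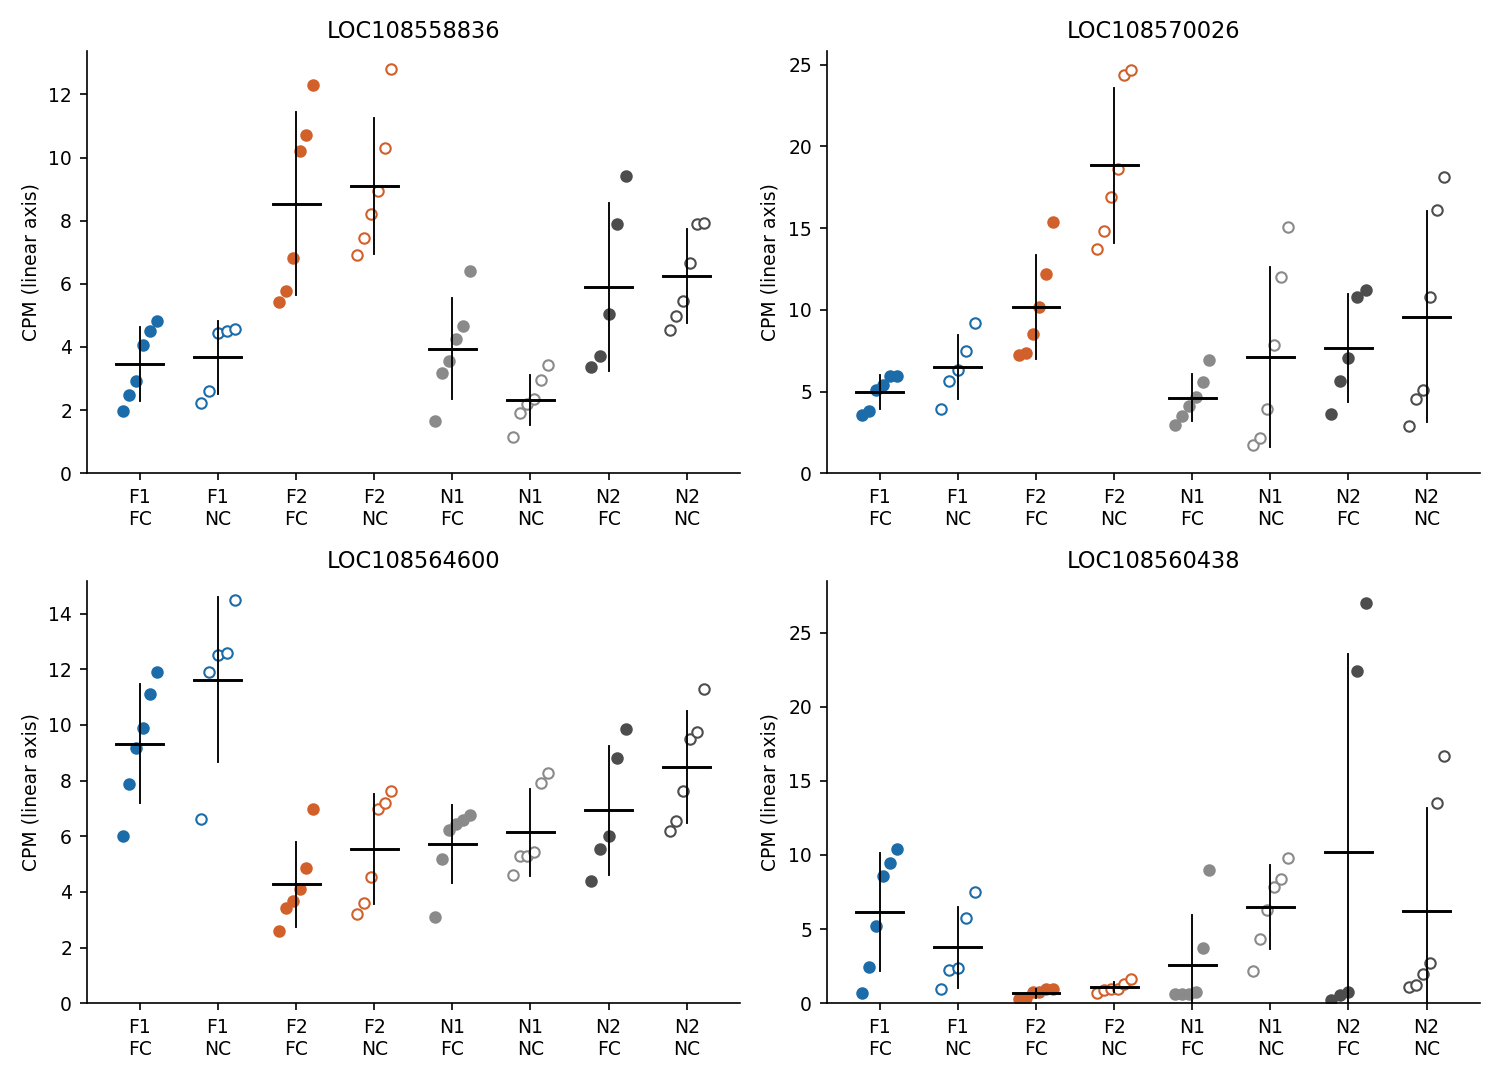
Levels in CPM on linear axes of LOC108558836 and LOC108570026, which were higher in F2, and of LOC108564600 and LOC108560438, which were higher in F1, in each library of the 8 groups, with filled points for families raised with care (FC), open points for families raised without care (NC), and means ± SD, the bars cut at 0. The F1 and F2 families of LOC108558836 do not overlap, and the no care lines of LOC108560438 spread from 0.231 to 27 CPM.

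In 3 DEGs, named after their values were seen because their mean fell under the count set for named genes, 1 line was at or near 0. These 3 passed the filter on low counts only through the line where they were higher, so that a call of theirs is no support for a difference. Each of the other 23 DEGs had enough libraries past the count minimum in either line. LOC108560006 was listed at 0 in all 12 F2 libraries and had 177 counts over the 11 F1 libraries, with 10 of them above 0 and the highest at 0.425 CPM. F1_16 alone held 53 of the 177 counts. No bound on the fold is given, since a low count is not a number of independent reads. The no care lines were not at 0 throughout, and their highest library was at 0.108 CPM. LOC108558529, a long non-coding RNA, was at 0 in 9 of 11 F1 libraries and 2 of 12 F2 libraries and reached 0.635 CPM in F2. LOC108561697 was at 0 in 8 of 11 F1 libraries and 1 of 12 F2 libraries and reached 0.880 CPM in F2. Their fitted values (4.74, SE 0.971, and 4.59, SE 0.938) depend on few counts, and each was called in at most 4 of the 23 fits.

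The values around the threshold form no gap. LOC108567123, with an adjusted p of 0.00933, was the last gene inside, and LOC108561568 (log2 fold change 1.75, adjusted p = 0.0102), LOC108568652 (1.32, adjusted p = 0.0105) and LOC108557050 (4.25, adjusted p = 0.0109) were the first outside. Below the fold change limit, 69 genes passed the adjusted p alone, with a median absolute log2 fold change of 0.45 and a range from 0.26 to 0.98. Of these, 30 were higher in F2 and 39 were higher in F1. The lines did not overlap in 2 of them, LOC108563342 (0.45, SE 0.054) and LOC108565440 (-0.44, SE 0.0789), which were named after their values were seen.

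Tested within each environment, few genes passed. With care there were 2 line DEGs (0.0171%), both higher in F1, namely LOC108564555 and LOC108564556. Without care there were 3 (0.0256%), 2 higher in F2 and 1 higher in F1, namely LOC108564555, LOC108570026 and LOC108567769. The last, named after its values were seen, was at 45.4 to 72.5 CPM in F1 and 100 to 143 CPM in F2 without care (log2 fold change 1.01, adjusted p = 0.00709). Over both environments its log2 fold change was 0.88 (SE 0.108), below the limit. Of the 26 DEGs, 11 had no overlap between the lines with care (0.878% of all genes) and 11 had none without care (1.92%). The lines were apart within both environments in 3 of them (0.0597% of all genes), LOC108564555, LOC108558836 and LOC108570026. The 26 were chosen for a difference between these same libraries, so none of these counts is support for it. The line difference itself differed between environments in 0 genes by edgeR, with 438 genes (3.73%) at an unadjusted p under 0.05 and 2 genes called by DESeq2. Those were LOC108563326 and LOC108560737, named after their values were seen, and each was listed at 0 in every library of at least 1 group. Across 11730 genes the line difference with care and that without care, which share no library, had a correlation of 0.299, and genes are not independent replicates.

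More genes differed between the environments than between the lines. In the same fit 826 genes (7.04%) differed between the environments, and 3 of the 26 line DEGs were among them. LOC108558535 was the one at the highest level. In F1 it averaged 15.7 ± 4.61 CPM with care (SD, n = 6) and 51.2 ± 11 CPM without (SD, n = 5), and in F2 33.3 ± 15.4 CPM with care (SD, n = 6) and 100 ± 29 CPM without (SD, n = 6). It was thus higher without care in both lines (log2 fold change 1.63, SE 0.197, adjusted p = 1.36e-06) and higher in F2 in both environments (1.03, SE 0.197, adjusted p = 0.00689). LOC108560960 was higher without care by 1.16 (SE 0.261) and higher in F2 by 1.31 (SE 0.265). LOC108561865 was higher without care by 1.07 (SE 0.255) and higher in F1 (-1.34, SE 0.256). LOC108558535, LOC108560960 and LOC108561865 were called as line DEGs in 9, 2 and 6 of the 23 fits that left out 1 library. LOC108564555 did not differ significantly between the environments (0.27, SE 0.247, adjusted p = 0.385).

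Each line was also asked for its own response to the removal of care. F1 had 295 DEGs between environments (2.51%), of which 233 were higher without care and 62 lower. F2 had 389 (3.32%), of which 193 were higher and 196 lower. The lines shared 129 of these genes, which is 43.7% of the F1 genes and 33.2% of the F2 genes. Genes called in 1 line nearly always had the same sign in the other, with 294 of 295 and 384 of 389, where 82.7% of all genes did. Across 11730 genes the responses of F1 and F2, which share no library, had a correlation of 0.776. Since no gene passed the test of the difference between the responses, the unequal counts do not show that the lines responded unequally. Single libraries moved both counts, to 111 in F1 without F1_09A and to 208 in F2 without F2_28, and F2 had 690 without F2_26 and F2_31.

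The no care lines N1 and N2 share no library with F1 and F2. Each block held 1 line of either regime, and that lines of the same number shared a block is taken from the numbers, since the labels name no block. The difference N2 minus N1 was set beside F2 minus F1 on that reading, and signs below would turn if the numbers did not match. N2 and N1 differed in 41 genes (0.35%). Of the 26 DEGs of F1 and F2, 1 was among these, LOC108560960, and it differed in the opposite direction, by 1.31 (called in 2 of 23 fits) in F2 minus F1 and by -1.16 in N2 minus N1 (SE 0.228, adjusted p = 0.00521). In sign, 14 of 26 (53.8%) matched, against 54.6% of all genes. The median absolute log2 fold change of the 26 was 1.34 between F1 and F2, which chose them, and 0.54 between N1 and N2. It was 0.2 for all genes between N1 and N2. Most of the 26 were of low level, and the value for all genes is not matched for level, so the 2 medians are not alike. Across 11730 genes the Pearson correlation of both line differences was 0.00226 and their rank correlation was 0.0995.

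A few DEGs had the same sign and an absolute log2 fold change of at least 1 in both sets of lines. LOC108558836 was higher in N2 than in N1 by 1.02 (SE 0.238, adjusted p = 0.0135), LOC108564556 lower by -1.08 (SE 0.270, adjusted p = 0.0178) and LOC108561865 lower by -1.06 (SE 0.338, adjusted p = 0.0501). LOC108558529 was higher in N2 by 2.65 (SE 0.748, adjusted p = 0.0309), at no more than 0.162 CPM in the no care lines. None of these reached the threshold between N1 and N2. The average of both line differences passed in 54 genes (0.46%), 10 of the 26 among them. A large value in 1 set can carry that average, as in LOC108564555 (-1.65), whose N2 minus N1 value was -0.20 (SE 0.241).

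The difference between the 2 line differences was then tested itself. It passed in 57 genes (0.486%), and in 7 of the 26 DEGs. The contrast holds the F2 minus F1 values that chose the 26, so that share is no support for a difference. For LOC108564555 the contrast was -2.87 (SE 0.328, adjusted p = 8.4e-07). The gap between F1 and F2, for which the gene was chosen, was larger than that between N1 and N2. For LOC108564592 and LOC108564590 it was 2.89 (SE 0.562) and 3.06 (SE 0.599). The values were 2.47 (SE 0.339) for LOC108560960, 1.96 (SE 0.353) for LOC108559109 and -1.47 (SE 0.248) for LOC108564600. The other gene was LOC108560006, whose fitted value rests on counts of 0 in F2. The remaining 19 DEGs did not pass, which does not show that they differed alike in both sets.

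**Figure D5:**
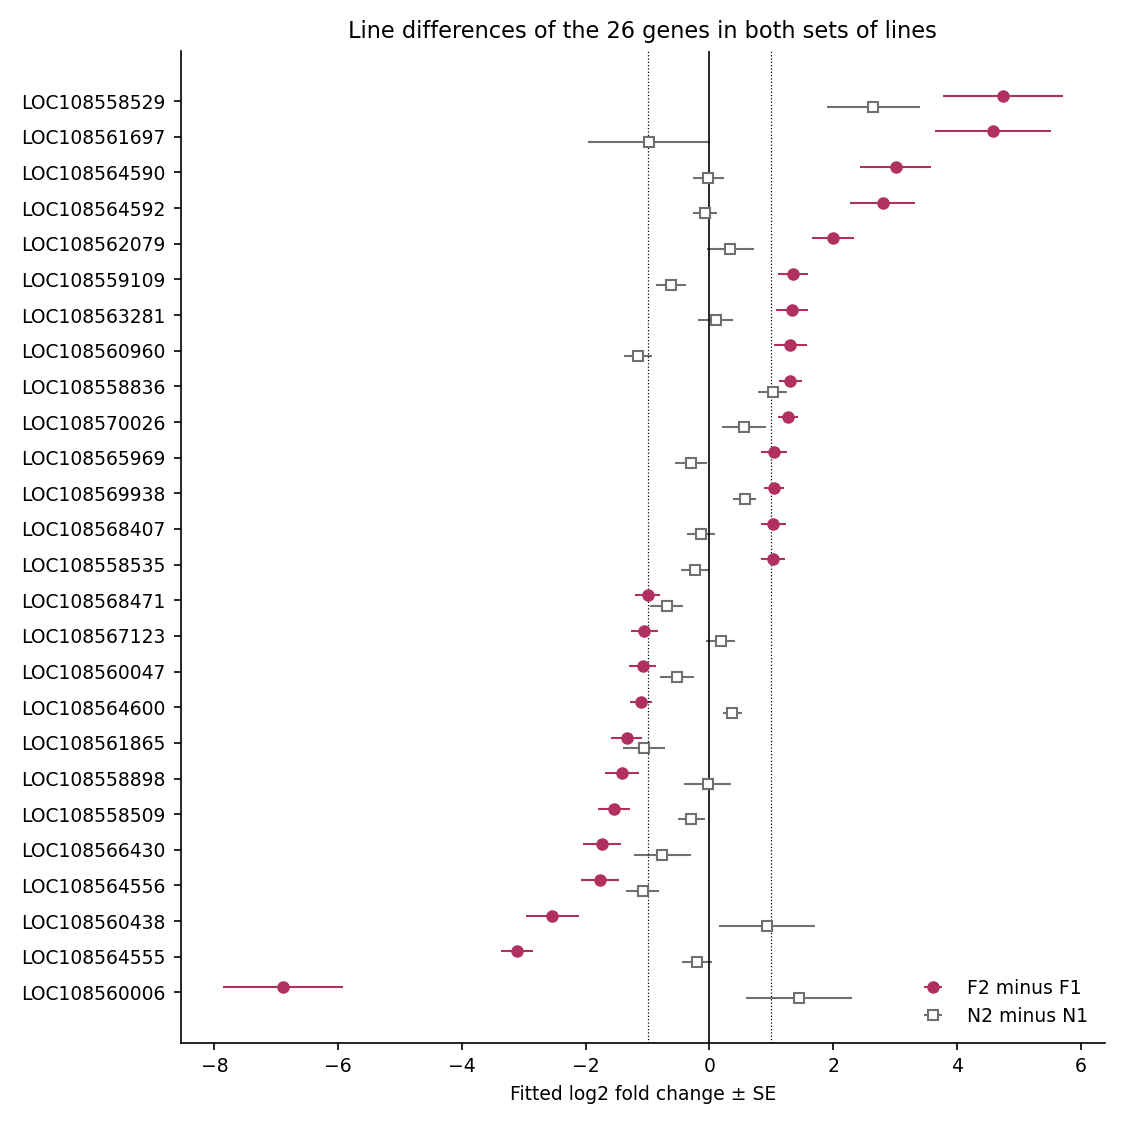
Fitted log2 fold changes ± SE of the 26 genes between F1 and F2 (filled circles) and between N1 and N2 (open squares), ordered by the former, with dotted lines at the fold change limit. The filled circles chose the genes, 14 of the 26 pairs share their sign, and the value of LOC108560006 depends on counts of 0 in F2 and is no bound.

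Products were known for 82 genes, which the paper lists as differentially expressed only in its no care population. The study had picked them on these samples, so their counts are not independent evidence of a direction. Of these, 78 were tested and 1, LOC108564555, was a DEG. It was the only member of the heat shock list. None of the 12 genes tested of the cuticle list passed, with a median log2 fold change of -0.26 beside -0.01 for all genes. The lists were matched by words in product names, and not all 12 products name a cuticle protein. None passed of 4 cytochrome P450 genes (median 0.63), 3 genes matched by name as other detoxification (0.47), 5 immunity genes (-0.02) or 4 neuronal receptors (-0.30). Nor did any of 3 sugar and lipid transport genes (0.31) or 2 enzymes of the GMC redox family (0.14). The 3 matched as other detoxification were farnesol dehydrogenase-like, UDP-glucuronosyltransferase 2B13-like and luciferin 4-monooxygenase-like, and not each need be a detoxification gene. LOC108566901, a cytochrome P450 9e2-like monooxygenase of a family that oxidizes hormones and toxins, came closest among these lists. It was at 8.40 to 39.2 CPM in F1 (median 17.1) and 15.1 to 78.3 CPM in F2 (median 36.7), with a log2 fold change of 0.90 (SE 0.196, adjusted p = 0.0125). LOC108566479, a lysozyme C-like gene of a family that cuts bacterial cell walls, ran from 2.68 to 31.6 CPM in F1 (median 7.30) and from 3.56 to 35.9 CPM in F2 (median 13.0), at 1.08 (SE 0.337, adjusted p = 0.076). LOC108561576, trace amine-associated receptor 5, had a value of 0.94 (SE 0.328, adjusted p = 0.11).

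Some of these genes were at or near 0 in many families. Both chemosensory genes tested had negative values over both environments (median -2.70), and neither passed. LOC108562103, a general odorant-binding protein 19d-like gene, had a log2 fold change of 1.03 with care and -3.17 without, so its direction was not shared. LOC108567230, a general odorant-binding protein 69a-like gene of a family that carries odorants to receptors, reached 0.491 CPM in F1 and 0.0193 CPM in F2 (log2 fold change -4.48, SE 1.14, adjusted p = 0.0302). Its F2 libraries all lay under the count minimum, so it passed the filter only through F1. The 1 gene of mobile elements, LOC108564141 (jockey-like RNA-directed DNA polymerase), ran from 0 to 0.826 CPM in F1 (median 0.0292) and from 0 to 8.10 CPM in F2 (median 1.73), at 4.20 (SE 1.20, adjusted p = 0.0544). It passed in the fit of all 46 libraries (adjusted p = 0.00705). LOC108561634, an axonemal dynein heavy chain 8 gene named after its values were seen, ran from 0.301 to 11.1 CPM in F1 (median 1.82) and from 0.0373 to 1.11 CPM in F2 (median 0.236), at -3.24 (SE 0.698, adjusted p = 0.0119). It passed with DESeq2 and in the fit of all 46 libraries. Of words set for markers of other tissues, 3 genes matched those for digestion (median 0.38) and 1 that for storage (0.75), and none passed. The 3 include inhibitors that are no gut enzymes. The 1 for storage, LOC108569073, is named vicilin-like seed storage protein At2g18540, a match by name alone and no checked marker of fat body. The vision, muscle and ribosome lists had 0 members with a product, so that the labelled tissue was not checked by its markers.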

How the data were processed

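Polyadenylated RNA of pooled larval heads was measured in 46 libraries, of which the 23 of lines F1 and F2 were compared. Trimmed reads had been aligned by the authors with HISAT2 (RefSeq assembly of the species) and quantified with StringTie, and the deposited values are whole-number counts per gene that were not normalized. No column belonged to another sample (0 left aside). The 13761 identifiers were paired with RefSeq symbols by their place in the gene table, and all 82 published names matched. Products come from those 82 alone.

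The count models were fitted by edgeR 4.0.16 under R 4.3.3 (TMM, quasi-likelihood test, Benjamini-Hochberg adjustment), with line and environment as terms over the 23 libraries. A gene was tested if 10% or more of these libraries held 15 or more counts. A fit of 4 groups gave the tests within environments and the care responses, a fit of the 23 no care libraries gave N2 minus N1, and a fit of 8 groups over 46 libraries gave the comparison of line differences. Every adjusted p in the text comes from these edgeR fits unless DESeq2 is named. Variance shares came from vegan 2.7.1 (99999 permutations, marginal terms, Euclidean distance on log2 CPM with a prior count of 2). Families are separate broods, so p-values measure the spread among families of 1 population per line. No sequence tables were used here.

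Named genes were the 10 DEGs of largest change in each direction with a mean of at least 50 scaled counts, the 5 of lowest p in each direction, DEGs with a product and the 3 members of lowest p of each product list, of which the text gives some. The members, lists and tests were chosen with earlier results of these data known. Alternatives were DESeq2 1.42.0, its size factors in edgeR, other filters, thresholds and covariates, all 46 libraries in the fit and each library left out. Tests were checked on simulated data.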

Additional observations from a re-analysis of the deposited data

Results flagged for a closer look

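A single family stood apart from the others of its group in 7 of 108 groups of libraries looked at, which were the 26 genes and the total counts in 4 groups each, and the limit used, the critical value of Dixon's test, is set so that chance alone puts about 1 in 20 groups past it. The gap was judged on log2(CPM + 0.1). LOC108564555 was at 6.25 CPM in F2_26, where the other F2 families raised with care were at 2.43 to 3.45 CPM, still below every F1 family. LOC108564600 was at 6.63 CPM in F1_06, where the other F1 families raised without care were at 11.9 to 14.5 CPM, and the gene was called without that library too. F2_28 was low in LOC108560960 (0.235 CPM, others 0.462 to 0.667) and in LOC108568471 (0.218 CPM, others 0.43 to 0.564), and F2_31 was low in LOC108559109 (0.481 CPM, others 1.02 to 1.28). LOC108561697 was at 0.0238 CPM in F1_06, with the others at 0, and at 0.0728 CPM in F1_14, with the others at no more than 0.016 CPM, which are levels of a few counts.

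In 7 of the 26 genes the line difference itself differed between the care-evolved and the no care lines, by edgeR's test of (F2 minus F1) minus (N2 minus N1). The log2 values were 3.06 for LOC108564590, 2.89 for LOC108564592, 2.47 for LOC108560960, 1.96 for LOC108559109, -1.47 for LOC108564600, -2.87 for LOC108564555 and -8.25 for LOC108560006. The last depends on counts of 0 in F2 and is no bound. The 26 genes were chosen for a large F2 minus F1 value, so these differences were not drawn from all genes alike.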

How the results depend on the processing

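No paired analysis was possible because F1 and F2 families come from separate populations, and the labels pair none of them. None of the 26 genes changed sign under any alternative run. Every run used libraries on which the 26 were chosen, so a kept sign is no support. The 26 line DEGs became 74 with DESeq2, which included all 26, 74 at an adjusted p under 0.05, 95 without a minimum fold change, 52 with all 46 libraries in the fit (25 of the 26), 9 without the environment covariate and 9 without F2_26 and F2_31, a setting chosen after seeing the data. Leaving out 1 library gave 9 to 27. The cause was not tested. Calls within an environment were few. With care the 2 became 26 with DESeq2, 4 at an adjusted p under 0.05, 1 without F2_26 and F2_31, and 1 to 3 without 1 library. Without care the 3 became 31 with DESeq2, 16 at an adjusted p under 0.05, 8 with all 46 libraries, and 1 to 6 without 1 library. The test of the line difference between environments called 0 in each fit that left out 1 library and 2 with DESeq2. The care response of F1 (295) became 591 with DESeq2, 711 at an adjusted p under 0.05, 1255 without a minimum fold change and 111 to 330 without 1 library. That of F2 (389) became 695, 821, 1900 and 208 to 496, and 690 without F2_26 and F2_31. The 41 genes between N1 and N2 became 224, 197, 185 and 19 to 60. The 57 genes whose line difference differed became 152, 179, 115 and 47 to 85, and the 54 genes that passed for the average of both line differences became 94 with DESeq2, 140, 650 and 44 to 59. The variance share of the line stayed between 4.93% and 5.9% without 1 library (p = 0.0949 to 0.166, permutation test) and that of the environment between 25% and 28.8%. DESeq2 size factors, no filter, a filter for 15 counts or more in 50% of libraries, the filter over all 46 libraries and the mean of both environments moved no count of the line DEGs by over 1.5 times.

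Of the 26 genes, 4 had a mean under 50 scaled counts, where few fragments stand behind a value. Line and block, and with them any difference in handling between the weeks, cannot be told apart with 1 line per block. The pairing of identifiers with symbols rests on order, checked on 82 names. Products are lacking for 25 of the 26 genes.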
